A study of Mus musculus with 9 samples.

Results

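Mt1 and Mt2, the genes of metallothionein 1 and metallothionein 2, are the 2 of the 32427 genes in these single-cell RNA matrices of mouse kidney that are described here. They were found by symbol, both were counted in each of the 9 mice, and their rows were followed by mouse, by group and by cell type. They are nuclear genes and not the mitochondrial genes whose symbols begin with mt. Of the other metallothioneins, Mt3 was listed at very low counts and Mt4 was not analysed here.

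All mice were male C57BL/6 mice aged 6 weeks at the start, and all kidneys were taken after 8 weeks. The 3 Control mice received saline, and the 3 AKI-CKD mice received 4 weekly intraperitoneal injections of cisplatin at 8 mg/kg, which is meant to lead from acute kidney injury to chronic kidney disease. The 3 AKI-CKD + EGT mice received the same cisplatin and drank water with 0.5 mg/mL ergothioneine, a sulphur-containing antioxidant, from shortly before the first injection. EGT was not given without cisplatin, and each mouse gave 1 library. Cells were captured in droplets and RNA was primed at its polyA tail, so a unique molecular identifier (UMI) count stands for 1 captured transcript end. The submitters kept 216680 barcodes with at least 1000 UMIs, and 196925 cells remained here after the limits of the study's methods. The study states a lower number of kept cells, and the source of that difference was not tested. The question was what cisplatin, and ergothioneine beside it, did to the expression of these genes in each kind of kidney cell.

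Metallothioneins are very small, cysteine-rich proteins that hold zinc and copper and also bind toxic metals such as cadmium. The cysteines bind platinum compounds as well, and cisplatin is one. Their transcription is raised by the zinc sensor MTF1, which binds metal response elements in the promoters, and also by glucocorticoids, by cytokines of the interleukin 6 family through STAT3 and by oxidative stress. In the kidney they are best known from the proximal tubule of animals exposed to cadmium, where they bind metal taken up from the filtrate. PT stands here for the proximal tubule, LOH for the thick limb of the loop of Henle, DCT for the distal convoluted tubule, CNT for the connecting tubule, and CD-PC and CD-IC for the principal and the intercalated cells of the collecting duct.

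The promoters of both genes are shown because the sequence that MTF1 reads, the core of the metal response element, is short enough to be seen in them. The 250 bases before the start of each gene are from RefSeq, build GRCm38.p6, in which both genes were matched by symbol. The matrices name another build, GRCm39, and hold no coordinates. Both genes lie on the plus strand of chromosome 8, the start of Mt1 is 6471 bases after that of Mt2, and no gene is listed between them. The core was searched as TGCACNC and as TGCGCNC on both strands, and matches are in capitals. A match on the minus strand appears as its reverse complement.
Mt1 (chr8:94178839-94179088): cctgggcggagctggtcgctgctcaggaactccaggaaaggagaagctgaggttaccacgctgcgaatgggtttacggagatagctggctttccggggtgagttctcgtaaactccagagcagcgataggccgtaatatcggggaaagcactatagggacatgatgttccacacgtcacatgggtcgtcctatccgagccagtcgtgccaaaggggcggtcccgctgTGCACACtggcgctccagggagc
Mt2 (chr8:94172368-94172617): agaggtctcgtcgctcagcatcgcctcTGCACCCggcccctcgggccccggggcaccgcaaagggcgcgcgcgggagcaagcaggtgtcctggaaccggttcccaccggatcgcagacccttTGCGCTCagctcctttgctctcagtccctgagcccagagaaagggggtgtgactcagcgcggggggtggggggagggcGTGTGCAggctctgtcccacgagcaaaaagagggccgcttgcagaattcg
Mt1 had 1 match, 23 to 17 bases before its start. Mt2 had 3 matches, at 223 to 217 and 128 to 122 bases before its start on the plus strand and at 50 to 44 bases on the minus strand, and none of them overlapped. Of all 32851 promoters of this length, 21.4% held at least 1 match and 1.26% at least 3. With the next 50 bases included, Mt1 had 3 matches and Mt2 had 4, and at least 4 were found in 0.517% of promoters. The numbers of matches thus depended on where RefSeq places the start, and bases farther after it were not searched. A match is only a description of the letters in these windows, which may not hold every metal response element of either gene.

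Cell types were rebuilt by clustering, and each cluster was given a name only where at least 3 markers of that type were raised in it, so that a name stands for a PT-like or DCT-like cluster. Of 31 clusters, 28 were named, in 14 types. PT cells were 154062 of the 196925 cells, or 78.2%. The names were given by these markers, so finding the markers in the named clusters is no check of the names. Among the leading genes were Slc12a3 and Pvalb in DCT, Umod and Slc12a1 in LOH and Aqp2 in CD-PC. No cluster met the rule for injured PT cells, and 3 clusters, the largest with 4483 cells led by haemoglobin genes, stayed unnamed. In that cluster 44.3% of the cells were from Control mouse 3. Another of the unnamed, with 747 cells, had 6 of 7 LOH markers raised but was led mostly by long neuronal genes. It is not part of LOH here, and 28.0% of its cells were from AKI-CKD + EGT mouse 3. Neither gene was among the genes used for clustering, from which the related genes below were also kept out unless they were markers. The libraries held 70106161 to 101525691 UMIs, and a kept cell had a median of 2714. The limit of 15% mitochondrial UMIs removed 27.7% of the cells of AKI-CKD + EGT mouse 3 and 17.0% of those of Control mouse 1, against 0.909% to 7.94% in the other 7 mice. PT cells were 53.1% of the kept cells in AKI-CKD + EGT mouse 3 and 70.0% to 88.8% in the others. Control mouse 1 and AKI-CKD + EGT mouse 3 stood apart in the cells removed by the mitochondrial limit, and values without them are given beside results that they moved. Pairs of libraries shared 3583 to 7810 barcode names, and the UMI totals of shared names had rank correlations between -0.024 and 0.038.

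Mt1 and Mt2 were at their highest in the distal nephron and at their lowest in PT. Levels are counts-per-million (CPM), the UMIs of the gene scaled to the total UMIs of a cell type in a mouse. Mt1 was at 3037 ± 908 CPM in LOH and 3031 ± 959 in DCT (SD over 9 mice), at 1255 ± 393 in CNT and at 1177 ± 420 in CD-PC. In PT cells it was at 166 ± 83.6 CPM, with a lowest mouse of 65.4, a median of 153 and a highest of 334. Mt2 was at 493 ± 172 CPM in DCT, 443 ± 156 in LOH, 199.6 ± 67.2 in CNT and 180.0 ± 65.4 in CD-PC, and in PT cells it was at 18.4 ± 15.2, between 5.04 and 52.8 with a median of 13.5. No LOH or DCT value of any mouse was as low as the highest PT value of either gene.

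Between these ends lay the remaining types. For Mt1 the mean levels fell from 754 ± 687 CPM in the thin limb through 659 ± 183 in CD-IC, 620.4 ± 352 in fibroblasts and mural cells, 503 ± 138 in macrophages, 454 ± 290 in podocytes of the 7 mice with at least 20 such cells, 442 ± 261 in cycling cells, 375 ± 121 in endothelial cells and 281 ± 122 in B cells to 254 ± 162 in T cells. For Mt2 the order was thin limb at 153 ± 152 CPM, podocytes at 78.2 ± 68.3, cycling cells at 75.8 ± 64.0, CD-IC at 66.2 ± 27.3, endothelial cells at 58.3 ± 18.9, fibroblasts and mural cells at 53.7 ± 27.7, B cells at 46.2 ± 29.5, macrophages at 42.6 ± 24.7 and T cells at 37.9 ± 40.9. The thin limb mean was drawn up by Control mouse 2, in which Mt1 reached 2453 CPM against 215 to 901 in the other 8 mice. By the median over mice the thin limb stood in rank 8 for Mt1, in place of rank 5. The first 2 and the last ranks were the same by the median and in the Control mice alone.

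**Figure D1:**
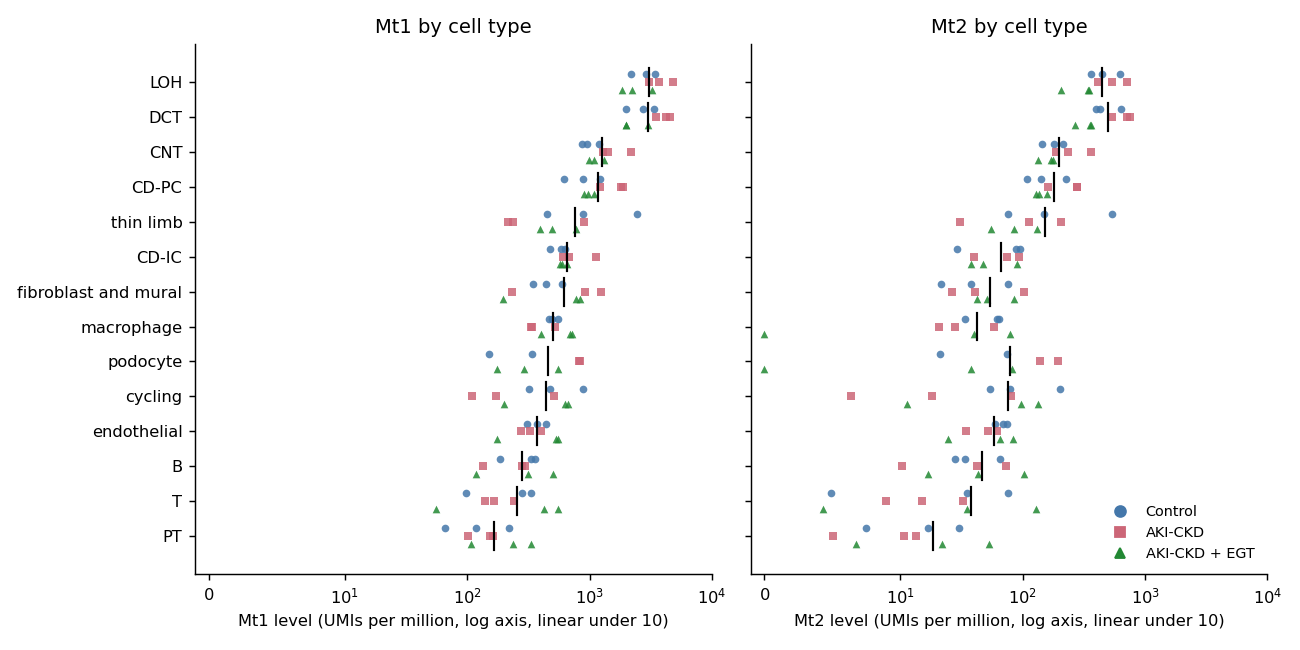
Mt1 (left) and Mt2 (right) in each cell type, in CPM of that type (UMIs scaled to the type's total) on a log axis that is linear under 10. Each point is 1 mouse with at least 20 cells of the type, coloured by group, and each black line is the mean over mice, from 3037 in LOH to 166 in PT for Mt1.

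Neighbours in this order were compared within mice by an exact paired permutation test, two-sided, with 26 comparisons in all, and none passed an adjusted p of 0.05. The steps with the smallest p were from DCT to CNT for Mt1, at 1.26 ± 0.27 on the log2 scale (SD), and from LOH to CNT for Mt2, at 1.12 ± 0.30. Both had the same sign in 9 of 9 mice, with an exact p of 0.0039, the smallest that 9 mice allow, and an adjusted p of 0.0508. LOH and DCT did not separate for Mt1, with a difference of 0.01 ± 0.14 and an exact adjusted p of 0.837. Each type was also compared with PT, a comparison added after PT had been seen to have the lowest levels. Mt1 was higher than in PT in 12 of 13 types and Mt2 in 10 of 13 types at an exact permutation adjusted p under 0.05, which was 0.0053 for LOH, DCT, CNT, CD-PC, CD-IC and the thin limb for both genes. The share of all genes that would meet this rule was not counted, so these counts are not set apart from those of other genes. The median ratio to PT over the mice was 24.2 in LOH and 27.4 in DCT for Mt1, and 36.9 in LOH and 39.3 in DCT for Mt2. The exceptions were T cells for both genes (exact permutation adjusted p = 0.066 for Mt1 and 0.0889 for Mt2), and podocytes and macrophages for Mt2 (exact permutation adjusted p = 0.266 and 0.134), where 1 library held no Mt2 UMI.

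RNA of other cells was present in every type and was measured beside these levels. PT genes that other kidney cells should lack (Kap, Miox, Slc34a1, Slc5a2, Slc22a6 and Lrp2) were at 38.7% of their PT level in CD-PC and up to 73.7% in podocytes, as means over mice. In the other direction, LOH genes in PT cells were at 0.251% to 6.84% of their LOH level over the 9 mice (medians over genes), with AKI-CKD + EGT mouse 3 highest, and DCT genes at 0.205% to 2.96% of their DCT level. Mt1 in PT was at 2.26% to 15.1% of its LOH level and Mt2 at 1.23% to 15.5%. In 9 of 9 mice these shares were above that of the highest of the LOH genes, and the same held against DCT genes. As a share of their LOH level, the LOH genes in PT moved with the groups. They were at 2.18%, 1.27% and 0.642% in Control mice, 0.251%, 0.456% and 0.405% in the AKI-CKD mice and 0.506%, 1.81% and 6.84% in the AKI-CKD + EGT mice. Each AKI-CKD mouse lay below every other mouse, and the same held for DCT genes as a share of their DCT level. The LOH level itself moved too. Umod in LOH was at 3058, 4059 and 4177 CPM in Control mice and 7220, 6688 and 5763 in the AKI-CKD mice. It was at 7338, 2968 and 2214 in the AKI-CKD + EGT mice. In CPM within PT, AKI-CKD and Control overlapped, with Umod at 38.4 in AKI-CKD mouse 2 against 35.9 in Control mouse 3. Slc12a3 in PT was at 15.7 and 14.0 in AKI-CKD mice 1 and 2 against 9.39 in Control mouse 3. How much of the PT level, or of its differences between groups, was RNA of other cells was not tested.

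Within PT, Mt1 was at 212 ± 91.5 to 253 ± 108 CPM (SD, 9 mice) in 3 of the 4 clusters of the first segment, S1, and at 162 ± 87.3 in the fourth. In 5 of the 7 clusters of the last segment, S3, it was at 97.9 ± 76.1 to 124 ± 71.5, and it was at 174 ± 142 and 235 ± 101 in the other two, the last of which held only 832 cells. Mt2 was at 18.4 ± 16.3 to 24.1 ± 21.7 CPM in S1 clusters and at 11.1 ± 8.22 to 27.6 ± 14.2 in S3 clusters. Single clusters of S1 and S3 overlapped in their spread over mice. Summed by segment, S1 cells lay above S3 cells of the same mouse in 9 of 9 mice for each gene, by 1.05 ± 0.56 for Mt1 and 0.56 ± 0.51 for Mt2 on the log2 scale (SD), a comparison made after the levels had been seen and given with no test. The share of all genes with such a difference was not counted.

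In 8 of the 9 mice most PT cells held no Mt1 UMI, and AKI-CKD + EGT mouse 3 was the exception. A Mt1 UMI was found in 31.5% ± 14.1 of PT cells (SD, 9 mice), from 16.4% to 62.0%, at a median depth of 2911 UMIs, against 85.0% ± 5.5 of LOH cells at 2073 UMIs and 86.8% ± 4.5 of DCT cells at 2310 UMIs. With every cell thinned to 1000 UMIs the shares were 13.9% ± 7.1 in PT, 72.7% ± 7.1 in LOH and 73.4% ± 6.6 in DCT. For Mt2 the shares were 5.62% ± 5.09 of PT cells, 42.3% ± 8.7 of LOH cells and 46.5% ± 8.9 of DCT cells, and 1.99% ± 1.76, 27.6% ± 6.8 and 29.2% ± 7.0 after thinning. T cells were close to PT for Mt1, at 29.6% ± 16.3 before and 14.0% ± 7.0 after thinning. Mt1 was found more often in PT cells that also held a Mt2 UMI. After thinning, it was seen in 19.6% to 47.9% of such cells against 6.59% to 28.0% of PT cells without Mt2, and it was higher in the first in each of the 9 mice.

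LOH, DCT, CNT and CD-PC together were 5.15% to 29.8% of the kept cells of a mouse (median 10.3%), and they held 43.1% to 63.9% of its Mt1 UMIs and 49.6% to 78.6% of its Mt2 UMIs. PT cells held 26.0% to 46.1% of the Mt1 UMIs and 16.1% to 40.4% of the Mt2 UMIs. AKI-CKD + EGT mouse 3, with 29.8% distal cells, had the highest level over all cells, at 687 CPM of Mt1 and 112 CPM of Mt2.

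**Figure D2:**
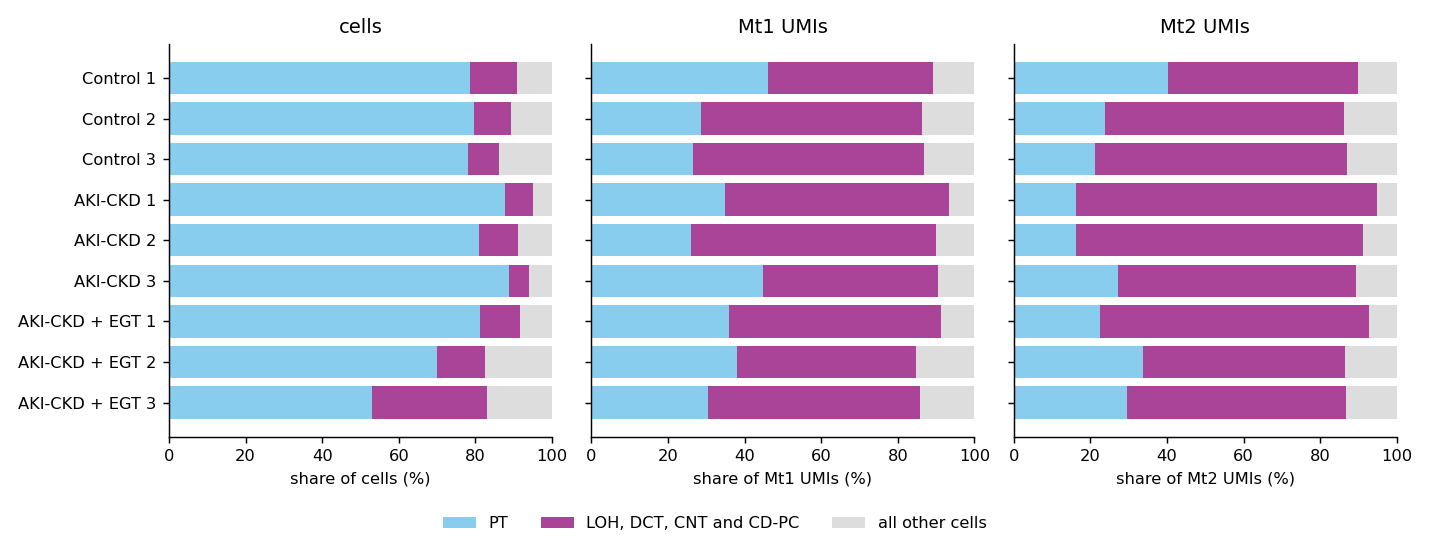
Share of kept cells, of Mt1 UMIs and of Mt2 UMIs (%) that came from PT, from LOH, DCT, CNT and CD-PC together, and from all other cells, with 1 bar per mouse. The distal types were 5.15% to 29.8% of cells and gave 43.1% to 63.9% of Mt1 UMIs and 49.6% to 78.6% of Mt2 UMIs.

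The groups were compared by edgeR's quasi-likelihood test on UMI counts summed per mouse, with Benjamini-Hochberg adjustment over all genes tested. Levels of Mt1 and Mt2 in the group comparisons below are CPM after TMM scaling of the library sizes, the scale of that test, unless stated otherwise. Neither gene passed an adjusted p of 0.05 in any of the 13 cell types tested, in all cells or in the S1 and S3 cells of PT. Podocytes, with 18 cells in Control mouse 3 and 19 in AKI-CKD mouse 1, had too few cells and were not tested. Of all genes, 0.0199% were called in all cells for AKI-CKD against Control, 0.00496% for AKI-CKD + EGT relative to AKI-CKD and 0.00496% for AKI-CKD + EGT against Control, and 0.0446%, 0% and 0% in PT. For the first 2 of these comparisons in that order the shares were 0% and 0.0193% in LOH, 0.00888% and 0% in DCT, 0% and 0% in CNT, 0.0633% and 0.0211% in CD-PC, 0.294% and 3.1% in CD-IC and 0.262% and 0.0187% in the thin limb. They were 0% and 0.00968% in endothelial cells, 0% and 0.0353% in fibroblasts and mural cells, 0.0136% and 0.0136% in macrophages, 0.0879% and 0% in T cells, 0.0186% and 0% in S1 cells, 0.0465% and 0% in S3 cells and 0% in B and cycling cells. Over the 13 types, the count at an unadjusted p under 0.05 was 6 for Mt1 and 4 for Mt2 in AKI-CKD against Control, and 5 and 4 in AKI-CKD + EGT relative to AKI-CKD. Of all genes, 5.04% to 16.9% of those tested in a type were under that p in the first comparison (median 9.45%) and 3.9% to 19% in the second (median 10.7%). The pair of comparisons shares the AKI-CKD mice, so a high AKI-CKD value raises one and lowers the other.

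In all cells, Mt1 was at 370.2, 370.4 and 218 CPM in Control mice 1 to 3, at 271, 514 and 359 in the AKI-CKD mice and at 247, 442 and 569 in the AKI-CKD + EGT mice. The groups overlapped. The log2 fold change was 0.26 ± 0.33 (SE) for AKI-CKD against Control (adjusted p = 0.858), 0.14 ± 0.33 for AKI-CKD + EGT relative to AKI-CKD (adjusted p = 0.887) and 0.39 ± 0.33 for AKI-CKD + EGT against Control (adjusted p = 0.762). Mt2 was at 58.7, 63.4 and 31.3 CPM in Control mice, 29.0, 68.9 and 41.7 in the AKI-CKD mice and 24.9, 46.0 and 92.6 in the AKI-CKD + EGT mice, with log2 fold changes of -0.14 ± 0.45, 0.23 ± 0.45 and 0.09 ± 0.45 in the same order. Without AKI-CKD + EGT mouse 3 the change relative to AKI-CKD was -0.13 for Mt1 and -0.38 for Mt2, and with total UMIs in place of TMM scaling it was 0.39 and 0.50. Against Control it was 0.12 for Mt1 and -0.51 for Mt2 without mouse 3, and 0.65 and 0.43 without mouse 1 of that group. The change of AKI-CKD against Control was -0.015 for Mt1 and -0.53 for Mt2 without AKI-CKD mouse 2. It was 0.45 and 0.11 without AKI-CKD mouse 1. Bulk-like sums of this kind cannot tell fewer cells of a type from less RNA per cell.

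In PT cells the groups overlapped for both genes. Mt1 was at 206, 127 and 67.1 CPM in Control mice, 106, 173 and 172 in the AKI-CKD mice and 107, 224 and 275 in the AKI-CKD + EGT mice, and Control mouse 3 was the lowest of all. The log2 fold change was 0.17 ± 0.41 for AKI-CKD against Control (adjusted p = 0.891) and 0.43 ± 0.41 for AKI-CKD + EGT relative to AKI-CKD (adjusted p = 0.637). Mt2 was at 28.6, 17.9 and 7.68 CPM in Control mice, 5.25, 14.4 and 12.1 in the AKI-CKD mice and 6.71, 20.7 and 43.5 in the AKI-CKD + EGT mice, so that AKI-CKD + EGT mouse 3 was the highest and mouse 1 of the same group lay within the AKI-CKD mice. Its log2 fold change was -0.77 ± 0.62 (adjusted p = 0.628) and 1.16 ± 0.62 (adjusted p = 0.394). These values rested on single libraries, among them those that stood apart. Without AKI-CKD + EGT mouse 3 the change against AKI-CKD was 0.15 for Mt1 and 0.39 for Mt2, and without Control mouse 1 the change of AKI-CKD against Control was 0.63 for Mt1 and -0.28 for Mt2. Without Control mouse 3 the latter change was -0.14 for Mt1, with its sign turned, and -1.13 for Mt2. This mouse was not among those set apart by the mitochondrial limit, but it gave 44.3% of the unnamed cluster led by haemoglobin genes. With total UMIs in place of TMM scaling, Mt1 was at 0.048 for AKI-CKD against Control and 0.70 for AKI-CKD + EGT relative to AKI-CKD. Mt2 in PT and the LOH and DCT genes found in PT had the same mouse as their highest, AKI-CKD + EGT mouse 3, and AKI-CKD mouse 1 as the lowest for Mt2 and the LOH genes, and the part of distal RNA in these values was not tested.

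The AKI-CKD + EGT relative to AKI-CKD values were larger in S3 cells of PT, at 1.01 ± 0.48 for Mt1 (adjusted p = 0.355) and 1.49 ± 0.67 for Mt2 (adjusted p = 0.332), than in S1 cells, at 0.11 ± 0.39 and 0.88 ± 0.60 (adjusted p = 0.916 and 0.519), and the difference between segments was not tested. In S3 cells Mt1 was at 150.2, 93.4 and 44.5 CPM in Control mice, 56.9, 121 and 65.7 in the AKI-CKD mice and 75.0, 154 and 259 in the AKI-CKD + EGT mice. The groups overlapped here too. Without AKI-CKD + EGT mouse 3 the S3 values were 0.50 for Mt1 and 0.61 for Mt2, and the S1 value of Mt2 was 0.15.

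**Figure D3:**
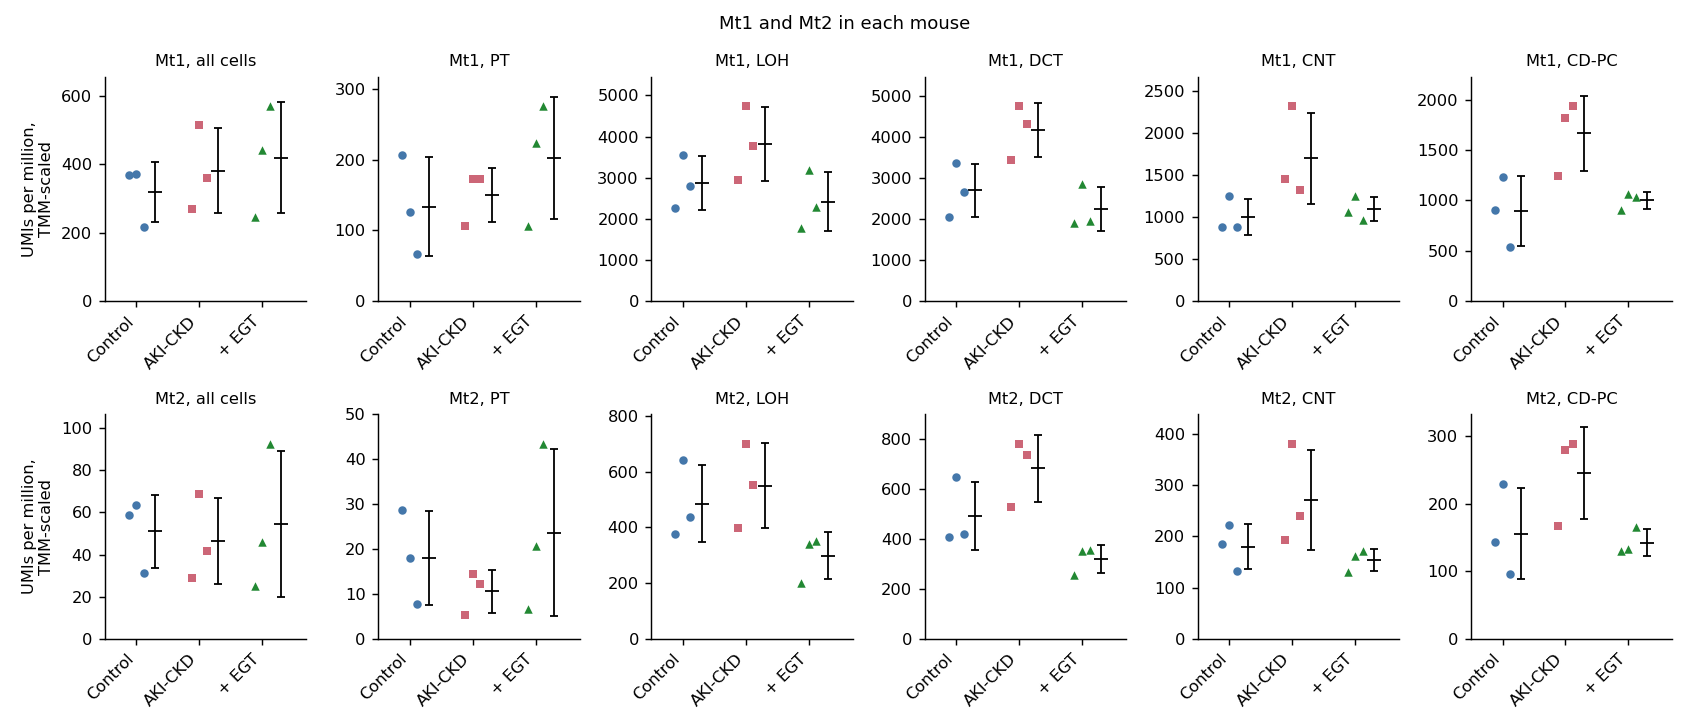
Mt1 (top) and Mt2 (bottom) in all cells, PT, LOH, DCT, CNT and CD-PC, in CPM after TMM scaling. Each point is 1 mouse of Control, AKI-CKD or AKI-CKD + EGT (+ EGT), in the order of mice 1 to 3, and black marks are the mean ± SD of 3 mice, with the highest mean of each gene in AKI-CKD in the 4 distal types.

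In LOH, DCT, CNT and CD-PC the mean of both genes was highest in the AKI-CKD group. Umod in LOH was also higher in each AKI-CKD mouse than in any Control mouse, though highest in AKI-CKD + EGT mouse 1. PT genes in these types varied between mice, at 41.9% to 66.9% of their PT level in LOH and 36.8% to 62.5% in DCT. They were at 39.5% to 73.2% in CNT and 22.4% to 55.0% in CD-PC. The part of other RNA in the distal levels was not tested. In DCT, Mt1 was at 2069, 3379 and 2671 CPM in Control mice, 3447, 4757 and 4339.6 in the AKI-CKD mice and 1914, 2873 and 1965 in the AKI-CKD + EGT mice. Each AKI-CKD mouse lay above every mouse of the other groups. The log2 fold change was 0.63 ± 0.22 for AKI-CKD against Control (adjusted p = 0.462) and -0.89 ± 0.22 for AKI-CKD + EGT relative to AKI-CKD (adjusted p = 0.297). A lack of overlap was common: it was found for 14.9% and 16.8% of all genes tested in DCT in these comparisons. Mt2 in DCT was at 408, 646 and 417 CPM in Control mice, 528, 779 and 734 in the AKI-CKD mice and 255, 350.1 and 354 in the AKI-CKD + EGT mice. AKI-CKD overlapped with Control, with a log2 fold change of 0.47 ± 0.21 (adjusted p = 0.552), and not with AKI-CKD + EGT, with -1.09 ± 0.22 (adjusted p = 0.281), which had the rank 6 by p among the 11266 genes tested.

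LOH cells had a like pattern with more overlap. Mt1 was at 2265, 3556 and 2812 CPM in Control mice, 2937, 4735 and 3778 in the AKI-CKD mice and 1778, 3195 and 2282 in the AKI-CKD + EGT mice, with log2 fold changes of 0.41 ± 0.23 (adjusted p = 0.597) and -0.66 ± 0.23 (adjusted p = 0.321). Mt2 was at 377, 643 and 437 in Control mice, 397, 700.2 and 552 in the AKI-CKD mice and 200.2, 341 and 352 in the AKI-CKD + EGT mice. Its change was 0.18 ± 0.24 for AKI-CKD against Control (adjusted p = 0.856), and -0.88 ± 0.25 for AKI-CKD + EGT relative to AKI-CKD (adjusted p = 0.233), where the groups did not overlap, as for 13.6% of genes in LOH.

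In CNT cells Mt1 was at 882, 1248 and 878 CPM in Control mice, 1457, 2313 and 1323 in the AKI-CKD mice and 1066, 1251 and 964 in the AKI-CKD + EGT mice. On this scale AKI-CKD overlapped with neither group, against 14.8% and 14.1% of genes, and the log2 fold changes were 0.76 ± 0.23 (adjusted p = 0.423) and -0.64 ± 0.23 (adjusted p = 0.354). Without TMM scaling, AKI-CKD + EGT mouse 2 lay above AKI-CKD mouse 3, at 1311 against 1288 CPM. Mt2 in CNT was at 186, 221 and 133 CPM in Control mice, 192, 381 and 239.6 in the AKI-CKD mice and 131, 162 and 172 in the AKI-CKD + EGT mice, with changes of 0.59 ± 0.24 (adjusted p = 0.514) and -0.81 ± 0.24 (adjusted p = 0.310).

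In CD-PC cells, Mt1 was at 909, 1234 and 541 CPM in Control mice, 1245, 1819 and 1933 in the AKI-CKD mice and 909, 1061 and 1036 in the AKI-CKD + EGT mice. AKI-CKD mouse 1 lay just above Control mouse 2 on this scale and just below it without TMM scaling, at 1209 against 1221. The log2 fold change was 0.89 ± 0.27 for AKI-CKD against Control (adjusted p = 0.154) and -0.73 ± 0.26 for AKI-CKD + EGT relative to AKI-CKD (adjusted p = 0.260), beside a lack of overlap for 23.1% and 18.3% of genes. Mt2 was at 143, 229 and 95.5 in Control mice, 167, 280.3 and 289 in the AKI-CKD mice and 129, 133 and 166 in the AKI-CKD + EGT mice, with changes of 0.64 ± 0.28 (adjusted p = 0.288) and -0.77 ± 0.28 (adjusted p = 0.260).

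Over LOH, DCT, CNT and CD-PC the sign of each change stayed the same when any 1 mouse was left out, apart from Mt2 in LOH for AKI-CKD against Control, which was -0.030 without AKI-CKD mouse 2. Several sizes moved by over 1.5 times. Without that mouse, CNT had 0.47 for Mt1 and 0.26 for Mt2 in AKI-CKD against Control and -0.35 and -0.47 in AKI-CKD + EGT relative to AKI-CKD, and Mt1 in LOH was at 0.22 in the first. Also for AKI-CKD against Control, Mt1 in LOH was 0.26 without Control mouse 1, and without Control mouse 2 Mt2 was 0.72 in DCT and 1.03 in CD-PC. Mt2 in CD-PC was 0.40 without Control mouse 3, and in LOH it was 0.030 without Control mouse 1 and 0.44 without Control mouse 2. In AKI-CKD + EGT relative to AKI-CKD no change in LOH, DCT or CD-PC moved by over 1.5 times with any 1 mouse left out. With clusters made without Harmony, DCT had -1.42 for Mt1 and -1.69 for Mt2 in that comparison, CNT had -0.40 and -0.47, and Mt2 in CNT was 0.26 for AKI-CKD against Control. The calls depended on the tool. By DESeq2's Wald test, Mt1 and Mt2 in DCT passed for AKI-CKD + EGT relative to AKI-CKD (adjusted p = 0.0140 and 0.00128, beside 0.137% of genes called), and Mt1 in CD-PC passed for AKI-CKD against Control (adjusted p = 0.0307, beside 0.649%). In DCT the adjusted p of Mt2 in AKI-CKD + EGT relative to AKI-CKD was between 8.5e-06, without a filter on low counts, and 0.754 over 20 alternatives, and 2 of them were under 0.05. Without that filter edgeR passed, for AKI-CKD against Control, Mt1 in the thin limb (1.21% of all genes called), CNT (0.66%) and CD-PC (1.51%), both genes in cycling cells (0.339%) and Mt2 in S3 cells (1.43%), and for AKI-CKD + EGT relative to AKI-CKD both genes in LOH (0.996%), DCT (1.19%) and S3 cells (2.52%) and Mt2 in CNT (0.976%) and CD-PC (1.56%).

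**Figure D4:**
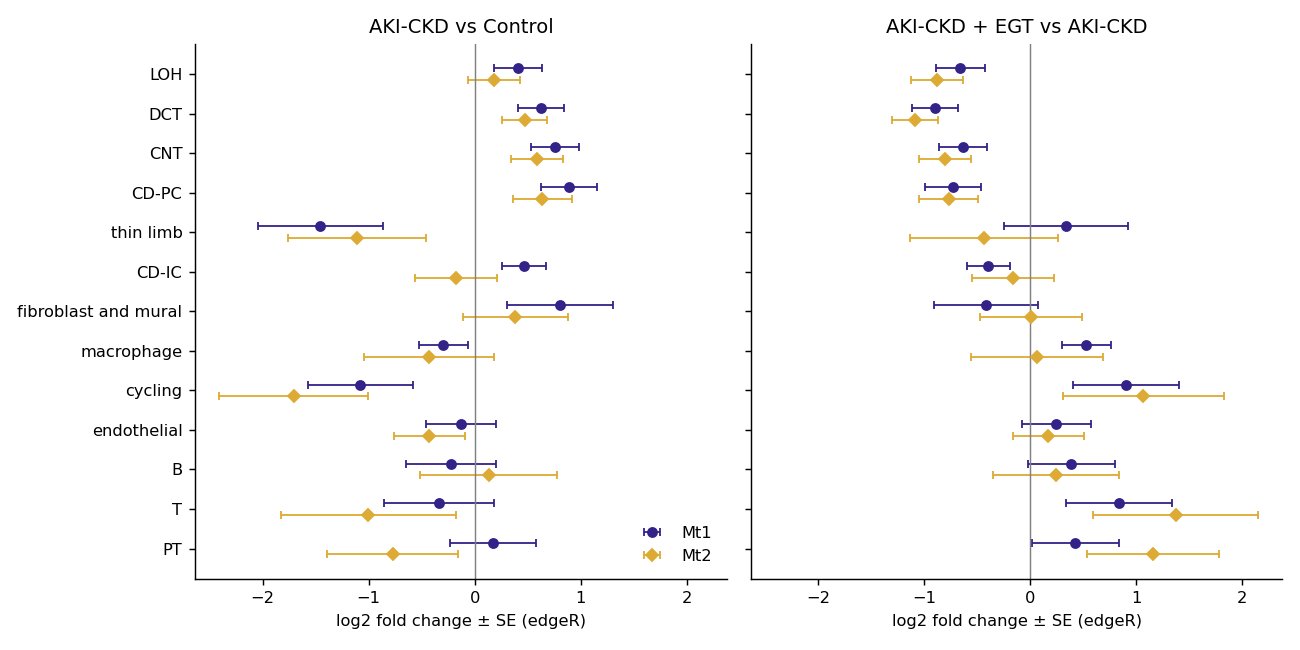
log2 fold change ± SE of Mt1 (circles) and Mt2 (diamonds) for AKI-CKD against Control (left) and AKI-CKD + EGT relative to AKI-CKD (right) in the 13 cell types tested, from edgeR. LOH, DCT, CNT and CD-PC lie above 0 on the left and below 0 on the right, and no value passed an adjusted p of 0.05.

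The other types had values in both directions. In AKI-CKD against Control the lowest log2 fold changes were those of Mt1 in the thin limb, at -1.45 ± 0.59 (adjusted p = 0.245), and of Mt2 in cycling cells, at -1.71 ± 0.70 (adjusted p = 0.839). Thin limb Mt1 was at 864, 2347 and 415 CPM in Control mice, 226, 880.0 and 260.2 in the AKI-CKD mice and 397, 481 and 794 in the AKI-CKD + EGT mice. Without Control mouse 2 its change was -0.53, and without AKI-CKD mouse 2 it was -2.32 and passed (adjusted p = 0.0106). Cycling cells had Mt2 at 53.9, 202 and 78.4 in Control mice, 6.64, 77.5 and 18.7 in the AKI-CKD mice and 10.6, 93.9 and 145 in the AKI-CKD + EGT mice, which overlapped. The change of Mt2 was -0.90 without Control mouse 2 and -3.07 without AKI-CKD mouse 2.

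In CD-IC cells the log2 fold change of Mt1 was 0.46 ± 0.21 for AKI-CKD against Control and -0.39 ± 0.21 for AKI-CKD + EGT relative to AKI-CKD (adjusted p = 0.326 and 0.320), and that of Mt2 was -0.17 ± 0.39 and -0.16 ± 0.39. Without AKI-CKD mouse 2 the Mt1 values were 0.16 and -0.091. In macrophages Mt1 was at 465, 508 and 539 CPM in Control mice, 344, 535 and 341 in the AKI-CKD mice and 411, 667 and 694 in the AKI-CKD + EGT mice, a change of 0.53 ± 0.23 for AKI-CKD + EGT relative to AKI-CKD (adjusted p = 0.738). Mt2 was not counted in the macrophages of AKI-CKD + EGT mouse 1 and was at 21.5 to 75.0 CPM in the other 8 mice. In endothelial, fibroblast and mural, T and B cells the groups overlapped for both genes, with adjusted p-values of 0.491 or more.

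Whether the group difference in a type differed from that in PT was tested within mice, with edgeR's interaction of cell type and group. The tests of all types used the same PT sums, so their calls are not separate results. For AKI-CKD + EGT relative to AKI-CKD it passed for Mt2 in 6 of 12 types, with a difference from PT of -1.40 ± 0.20 in CD-IC (log2 ± SE, adjusted p = 9.5e-10), -1.46 ± 0.38 in the thin limb (adjusted p = 0.0356), -1.71 ± 0.36 in CD-PC (adjusted p = 0.00922), -1.78 ± 0.34 in CNT (adjusted p = 0.00295), -1.91 ± 0.36 in LOH (adjusted p = 0.00324) and -2.02 ± 0.43 in DCT (adjusted p = 0.0449). The shares of all genes called were 6.89%, 0.505%, 0.925%, 0.701%, 1.84% and 0.335% in that order. In this comparison the log2 fold change of Mt2 was 1.16 ± 0.62 in PT itself, and 0.39 without AKI-CKD + EGT mouse 3. In CD-IC itself it was -0.16 ± 0.39. For Mt1 it passed in 3 types, with -0.75 ± 0.14 in CD-IC (adjusted p = 1.5e-05), -0.89 ± 0.23 in fibroblasts and mural cells (adjusted p = 0.0250, beside 0.427% of genes) and -1.08 ± 0.28 in LOH (adjusted p = 0.0370).

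The type and PT can be set side by side in each mouse. In log2, Mt2 in DCT stood 3.51, 4.83 and 5.43 above PT in Control mice, 6.31, 5.42 and 5.56 above it in the AKI-CKD mice and 4.89, 3.75 and 2.68 above it in AKI-CKD + EGT mice. AKI-CKD and AKI-CKD + EGT did not overlap, as was found for 13.3% of all genes on this measure, and the exact permutation p for this type was 0.1, the smallest that 3 mice against 3 allow. Mt2 in DCT lay below the AKI-CKD mice in all 3 AKI-CKD + EGT mice, and Mt2 in PT lay above them in mice 2 and 3 of that group. All 3 mice of that group held more LOH and DCT RNA in PT cells than any AKI-CKD mouse, and its part in the differences from PT was not tested. Without AKI-CKD + EGT mouse 3 the difference for DCT was -1.49. Some other calls of edgeR's interaction had no overlap on this measure either, each at an exact permutation p of 0.1. They were Mt2 in LOH, CNT, CD-PC and CD-IC and Mt1 in LOH for AKI-CKD + EGT relative to AKI-CKD, and Mt2 in CD-IC for AKI-CKD against Control. The shares of all genes without overlap in these types are not given here. For the remaining calls the groups overlapped. For AKI-CKD + EGT relative to AKI-CKD these were Mt2 in the thin limb (exact permutation p = 0.4), Mt1 in CD-IC (exact permutation p = 0.2) and Mt1 in fibroblasts and mural cells (exact permutation p = 0.3). For AKI-CKD against Control, described next, they were Mt1 in the thin limb and in cycling cells (exact permutation p = 0.2 for each).

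The number of calls depended on the tool and on single mice. In 7 of the 12 types, among them CD-IC, the thin limb, cycling cells and fibroblasts and mural cells, edgeR's estimate of the prior degrees of freedom was infinite. There the SE and p of a gene rest on a spread shared with genes of like abundance and not on its own, and 7 of the 12 calls for both genes and comparisons were in these types. On simulated counts, 22.5% of the calls of edgeR's interaction in LOH (17218 genes) and 24.3% in CD-IC (16835 genes) were of genes that had not been changed. By limma-voom with the same terms, chosen after this was seen, 13.7% and 0% of simulated calls were false, and in the data only Mt2 in CD-IC passed for AKI-CKD + EGT relative to AKI-CKD (adjusted p = 0.0184, beside 2.44% of genes), while Mt2 in LOH had an adjusted p of 0.0726 and in DCT of 0.204. CD-IC joined a cluster of 2703 cells, of which at most 17.7% were from any mouse, and another of 1711 cells with Slc4a1 and Aqp6 among its leading genes. In the latter 33.2% of cells were from AKI-CKD + EGT mouse 3, which gave 974 of the 4414 CD-IC cells. The part of this mix of clusters in the CD-IC values was not tested. For AKI-CKD against Control, edgeR's interaction passed for Mt1 in the thin limb (-1.64 ± 0.34, adjusted p = 0.000585, beside 0.795% of genes) and in cycling cells (-1.34 ± 0.21, adjusted p = 3.3e-07, beside 0.0455%) and for Mt2 in CD-IC (0.67 ± 0.20, adjusted p = 0.0359, beside 2.86%), and limma-voom passed none of them. Of the 12 calls, 5 passed without any 1 of the 9 mice, which were those of Mt2 in LOH, CNT, CD-PC and CD-IC and of Mt1 in CD-IC, all for AKI-CKD + EGT relative to AKI-CKD. Fits with fewer mice could give smaller p-values, so passing them is no measure of how stable a call was. For Mt2 the highest edgeR adjusted p with 1 mouse left out was 0.000173 in CNT and 0.00672 in CD-PC. With all 9 mice it was 0.00295 and 0.00922. The call of Mt1 in the thin limb was -0.92 without Control mouse 2 (edgeR adjusted p = 0.493), that of Mt1 in cycling cells -0.90 without the same mouse (edgeR adjusted p = 0.305), and that of Mt2 in CD-IC for AKI-CKD against Control 0.42 without Control mouse 1 (edgeR adjusted p = 0.634) and 1.05 without Control mouse 2. Mt2 in DCT no longer passed without AKI-CKD mouse 1, AKI-CKD mouse 3 or AKI-CKD + EGT mouse 2, Mt2 in the thin limb without AKI-CKD mouse 3 or AKI-CKD + EGT mouse 2 or 3, and Mt1 in LOH without AKI-CKD mouse 1. With any 1 mouse left out, the difference of Mt2 in DCT was between -2.54 and -1.49. Mt1 in fibroblasts and mural cells passed without 1 of the mice only and was -0.44 without AKI-CKD mouse 2.

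The balance of the pair was measured as the share of Mt1 in Mt1 plus Mt2 UMIs, which is compared between groups only, since the counts are of transcript ends and say nothing of either gene per length. In PT cells it was 88.4% ± 1.2 in the Control group, 93.7% ± 1.5 in the AKI-CKD group and 90.7% ± 3.9 in the AKI-CKD + EGT group (SD, n = 3). The difference between AKI-CKD and Control was 5.28 percentage points with no overlap, at an exact two-sided permutation p of 0.1, the smallest that 3 mice against 3 allow, and it was 4.47 to 5.96 with any 1 of these mice left out. The level of 20.8% of all genes in PT did not overlap between these groups either. Nor did the LOH genes in PT as a share of their LOH level, at 0.251% to 0.456% in the AKI-CKD mice and 0.642% to 2.18% in Control mice. In CPM within PT, Umod did overlap, at 38.4 in AKI-CKD mouse 2 against 35.9 in Control mouse 3. The part of distal RNA in the Mt1 share was not tested. AKI-CKD + EGT differed from AKI-CKD by -3.01 points (exact permutation p = 0.3), by -0.857 without AKI-CKD + EGT mouse 3 and by -4.73 without mouse 1 of that group. In all cells the shares were 86.4% ± 1.0, 89.4% ± 1.1 and 89.1% ± 2.7. There the AKI-CKD and Control mice differed by 2.98 points (exact permutation p = 0.1), beside a lack of overlap for 15.8% of genes. The mean share was also higher in AKI-CKD than in Control in other types, among them LOH (87.5% ± 0.5 against 85.7% ± 0.9) and DCT (86.1% ± 0.6 against 84.7% ± 1.6). It was lower in the thin limb, podocytes and B cells. In AKI-CKD + EGT it was 89.0% ± 2.0 in LOH and 87.4% ± 2.3 in DCT, above AKI-CKD and not below it as in PT. The shares in single types other than PT were not tested.

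Over the 9 mice, Mt1 and Mt2 in PT ran together, with Pearson's r = 0.88 and Spearman's rho = 0.88 (permutation adjusted p = 0.0242 and 0.0415 over 15 relations), and r was 0.85 without Control mouse 3 and AKI-CKD + EGT mouse 3 and 0.97 within groups. Both also ran with measures of the state of the libraries. With the mitochondrial share of UMIs over all barcodes, which was 1.69% to 9.28%, Mt1 gave r = 0.82 and rho = 0.73 (permutation adjusted p = 0.0242 and 0.0584) and Mt2 gave r = 0.85 and rho = 0.75 (permutation adjusted p = 0.0242 and 0.0546). Without Control mouse 1 and AKI-CKD + EGT mouse 3, the farthest from the median, r was 0.62 and 0.52, and after centring within groups it was 0.87 and 0.81.

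With the summed level in PT of 12 genes raised by tissue dissociation and heat shock, r was 0.78 and rho 0.80 for Mt1 (permutation adjusted p = 0.0399 and 0.0415) and r was 0.83 and rho 0.83 for Mt2 (permutation adjusted p = 0.0242 and 0.0415). Without the 2 farthest mice r was 0.62 and 0.79, and within groups 0.89 and 0.93. The part of cell state or dissociation in the PT levels was not tested. No relation was seen with Malat1 in PT (r = 0.20 and 0.41). Over the 9 mice no relation was seen between the level in PT and that in LOH, with r = -0.11 and rho = 0.05 for Mt1 and r = 0.00460 and rho = -0.13 for Mt2 (permutation adjusted p between 0.831 and 0.991), nor that in DCT, with r = -0.25 and -0.16. Within groups r was 0.14 for Mt1 and 0.53 for Mt2 in LOH, and -0.10 and 0.49 in DCT. It ran with the level in endothelial cells, with r = 0.67 and rho = 0.82 for Mt1 (permutation adjusted p = 0.0979 and 0.0415) and r = 0.76 and rho = 0.80 for Mt2 (permutation adjusted p = 0.0399 and 0.0415). Without the 2 farthest mice these r were 0.88 and 0.63, and within groups 0.75 and 0.84. For macrophages no relation passed, with r = 0.51 and rho = 0.53 for Mt1 (permutation adjusted p = 0.270 and 0.246) and r = 0.54 and rho = 0.77 for Mt2 (permutation adjusted p = 0.253 and 0.0535).

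**Figure D5:**
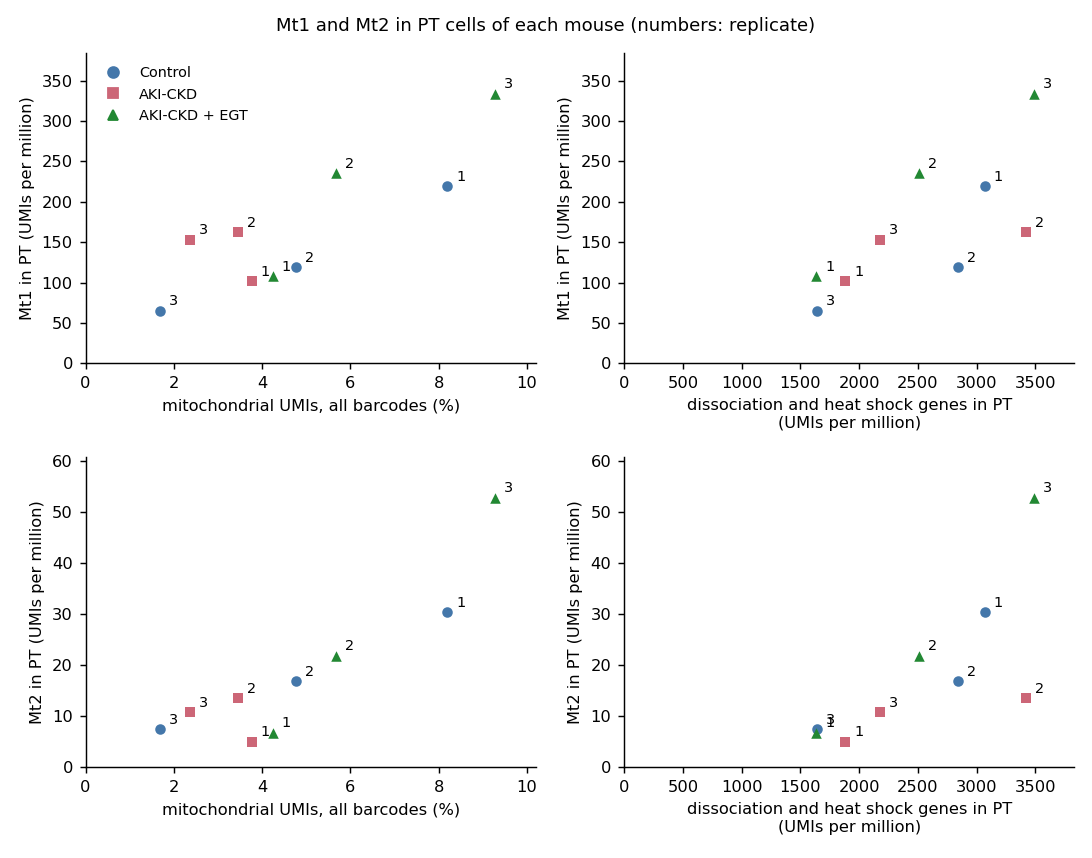
Mt1 (top) and Mt2 (bottom) in PT cells of each mouse, in CPM, against the mitochondrial share of UMIs of all barcodes (left, %) and the summed level of dissociation and heat shock genes in PT (right). Each point is 1 mouse, coloured by group and numbered by replicate, and AKI-CKD + EGT mouse 3 is at the upper right of each panel, with 9.28% mitochondrial UMIs.

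The remaining genes of the pathway were read from lists chosen by their known roles. Levels of Mt3 and Mtf1 are CPM without TMM scaling. Mt3, the metallothionein of brain, was at 0.372 to 2.71 CPM over all cells, with its highest level in LOH (13.5 to 34.1 in AKI-CKD mice), and did not pass in PT or in all cells. Mtf1, the zinc sensor, was at 15.2 to 19.3 CPM over all cells and at log2 fold changes of -0.05 ± 0.12 in PT in each comparison (adjusted p = 0.904 and 0.873). Of 19 tested genes among Mtf1 and the zinc transporters, none was called in PT or in all cells, and their median log2 change in PT was 0.05 for AKI-CKD against Control and -0.07 for AKI-CKD + EGT relative to AKI-CKD, against -0.01 and -0.01 for all genes. The smallest p-values were those of Slc39a5, a zinc importer of epithelial membranes, with 0.76 ± 0.22 for AKI-CKD against Control (adjusted p = 0.340), and Slc39a3, another zinc importer, with -0.33 ± 0.11 for AKI-CKD + EGT relative to AKI-CKD (adjusted p = 0.247).

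Copper handling genes, 12 of 12 tested, gave medians of 0.11 and -0.21 in PT in the same comparisons and no call. Atox1, a copper chaperone, was at -0.56 ± 0.17 for AKI-CKD + EGT relative to AKI-CKD (adjusted p = 0.234), and Slc31a2, a copper transporter of endosomes, at 0.45 ± 0.17 for AKI-CKD against Control (adjusted p = 0.396). For glucocorticoid receptor and response genes, 14 of 14 tested, the medians were -0.30 and -0.25, with no call. Hsd11b2, which inactivates corticosterone, was at 1.24 ± 0.33 (adjusted p = 0.230) and Nr3c2, the mineralocorticoid receptor, at 1.07 ± 0.30 (adjusted p = 0.232) for AKI-CKD + EGT relative to AKI-CKD. Both are genes of the distal nephron, RNA of which was found in PT cells, and its part in these values was not tested.

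The genes of interleukin 6 and STAT3 signalling, 10 of 11 tested in PT, gave medians of -0.18 and 0.16 and no call. Socs3, the feedback inhibitor of this pathway, was at 1.85 ± 0.75 (adjusted p = 0.291) and Stat3 at 0.51 ± 0.25 (adjusted p = 0.353) for AKI-CKD + EGT relative to AKI-CKD. Dissociation and heat shock genes gave medians of 0.26 and -0.09 with no call among 12, and the smallest p-values were those of the chaperones Dnajb1, at -0.93 ± 0.24 (adjusted p = 0.224), and Hsp90aa1, at -0.61 ± 0.22 (adjusted p = 0.264), both for AKI-CKD + EGT relative to AKI-CKD. Over all genes tested in PT, 48.0% and 48.8% had a change above 0 in the 2 comparisons.

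As a description, the genes most like the mean of Mt1 and Mt2 over the 14 cell types were Acadsb (r = 0.95), Kctd1 (r = 0.92), Sostdc1 (r = 0.92), Cacnb4 (r = 0.91) and Gm47708 (r = 0.91), among 8819 genes with at least 10 CPM. Mt1 and Mt2 had r = 0.96 with each other over these types, and the types share their libraries. Over the 9 mice in PT, among 7420 genes, they were Clcn7 (r = 0.98), Krt8 (r = 0.95), Tfeb (r = 0.95), Sun2 (r = 0.94) and Rnf19b (r = 0.94). Clcn7 encodes a chloride and proton exchanger of lysosomes, Tfeb a regulator of lysosomal genes and Krt8 a keratin of simple epithelia.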

How the data were processed

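Single-cell RNA was measured in the kidneys of 9 mice, 3 per group. The deposited matrices hold raw UMI counts per gene and barcode, made by the authors with PISA v1.0 per the file headers; the build GRCm39 is named in the submitters' processing notes, and the aligner, annotation and cell calling are not given in the sources used here. Library totals were 70106161 to 101525691 UMIs. Cells with at least 1000 UMIs, 500 genes and at most 15% mitochondrial UMIs were kept. Doublets were not removed, since Scrublet called 0 or 1 cell per library.

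Clusters came from 2000 variable genes, 30 components corrected by library with Harmony, 20 neighbours and a Leiden resolution of 1.1. A cluster was named from 21 marker lists where at least 3 markers were raised 1.5-fold, unless a further rule on its leading genes or its UMI count left it unnamed. Names are rebuilt and may differ from the study's. Sums of counts per mouse, for each type with at least 20 cells in every mouse, were compared with edgeR 4.0.16 (TMM, filterByExpr, quasi-likelihood test, Benjamini-Hochberg adjustment over all genes), all 9 mice in 1 fit. Interactions had mouse as a term, and exact or permutation tests were two-sided. The scripts were tested on simulated data. limma 3.58.1 and DESeq2 1.42.0 were alternatives, run in R 4.3.3, with other steps in Python 3.11.15 and scanpy 1.11.5.

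The members and gene lists were chosen with earlier results of these data known. Named were Mt1 and Mt2 in every population, Mt3 and Mtf1, the members of each related list that were called or else the 2 with the smallest p in PT, and the 5 genes most like the pair over cell types and over mice. The comparison of each type with PT, limma-voom and the within-mouse permutation test were added after values were seen. The labels do not say that equal replicate numbers mark shared litters or days. P-values of group comparisons rest on 3 mice per group, with a spread that edgeR shares across genes, and paired tests and correlations run over the mice.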

Additional observations from a re-analysis of the deposited data

Results flagged for a closer look

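For 12 combinations of gene, cell type and comparison, the group difference in that type differed from the one in PT by edgeR's test of the difference itself. Both genes were tested in 12 types and in both comparisons, all against the same PT sums. In the tests with a call, the share of all genes called was 0.0455% to 6.89%. Of these calls, 7 were in types with infinite prior degrees of freedom. On simulated counts, 22.5% of the calls in LOH and 24.3% in CD-IC were false. Values are log2 differences, the type minus PT. For AKI-CKD + EGT relative to AKI-CKD, Mt2 differed in LOH by -1.91, in DCT by -2.02, in CNT by -1.78, in CD-PC by -1.71, in CD-IC by -1.40 and in the thin limb by -1.46. For the same comparison Mt1 differed in LOH by -1.08, in CD-IC by -0.75 and in fibroblasts and mural cells by -0.89. For AKI-CKD against Control, Mt1 differed in the thin limb by -1.64 and in cycling cells by -1.34, and Mt2 in CD-IC by 0.67. Without AKI-CKD + EGT mouse 3, the Mt2 differences were -1.39 in LOH, -1.49 in DCT, -1.17 in CNT, -1.24 in CD-PC, -1.08 in CD-IC and -0.89 in the thin limb. Without Control mouse 2, Mt1 was at -0.92 in the thin limb and -0.90 in cycling cells for AKI-CKD against Control and passed in neither, and Mt2 in CD-IC ranged from 0.42 to 1.05 with 1 mouse left out. Mt1 in fibroblasts and mural cells was -0.44 without AKI-CKD mouse 2. By limma-voom only Mt2 in CD-IC for AKI-CKD + EGT relative to AKI-CKD passed.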

How the results depend on the processing

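Over 1341 recomputed group differences, 1267 kept their direction and side of the threshold, 18 passed where the reported value had not, and 56 changed sign, all of them values that had not passed. With 1 mouse left out, log2 changes that crossed 0 ranged from -0.015 to 0.45 for Mt1 in all cells, -0.53 to 0.11 for Mt2 in all cells, -0.14 to 0.63 for Mt1 in PT, -1.60 to 0.13 for Mt2 in thin limb, -0.030 to 0.44 for Mt2 in LOH, -0.51 to 0.15 for Mt2 in CD-IC, -0.27 to 0.025 for Mt1 in endothelial, -0.48 to 0.94 for Mt2 in fibroblast and mural, -0.49 to 0.092 for Mt1 in B, -0.86 to 0.66 for Mt2 in B and -0.63 to 0.25 for Mt1 in PT-S3 (AKI-CKD against Control). They ranged from -0.13 to 0.40 for Mt1 in all cells, -0.38 to 0.61 for Mt2 in all cells, -0.0017 to 1.18 for Mt1 in thin limb, -0.66 to 0.11 for Mt2 in CD-IC, -0.026 to 0.62 for Mt1 in endothelial, -0.21 to 0.51 for Mt2 in endothelial, -0.88 to 0.073 for Mt1 in fibroblast and mural, -0.43 to 0.87 for Mt2 in fibroblast and mural, -0.75 to 0.65 for Mt2 in macrophage, -0.13 to 0.72 for Mt1 in B, -0.50 to 1.22 for Mt2 in B and -0.11 to 0.45 for Mt1 in PT-S1 (AKI-CKD + EGT relative to AKI-CKD). They ranged from -0.51 to 0.43 for Mt2 in all cells and -0.40 to 0.88 for Mt2 in PT (AKI-CKD + EGT against Control). The difference in Mt1 share over all cells, AKI-CKD + EGT relative to AKI-CKD, ranged from -1.08 to 1.34 percentage points. The number of types that differed from PT for AKI-CKD + EGT relative to AKI-CKD was 2 to 5 for Mt1 and 5 to 7 for Mt2, and for AKI-CKD against Control 0 to 3 and 0 to 5. By limma-voom these counts were 0 and 1, and 0 and 0. Leaving out AKI-CKD + EGT mouse 3 changed the sign of 12 of 68 results and AKI-CKD mouse 1 that of 8.

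The remaining changes of sign were those of Mt2. Mt2 in fibroblasts and mural cells, AKI-CKD + EGT relative to AKI-CKD, was -0.041 by DESeq2, -0.0053 with its size factors, -0.0041 with library sizes without mitochondrial, ribosomal protein and Malat1 counts, -0.022 without a filter on low counts and -0.10 at a mitochondrial limit of 10%, and for AKI-CKD against Control it was -0.031 without the 1% of cells highest in both genes. Mt2 in B cells, AKI-CKD against Control, was -0.0013 at that limit, -0.045 without Harmony and -0.28 without the 6% of cells with the highest doublet score. The cause of these changes was not tested. Without a filter on low counts, 14 further results passed. DESeq2 called 109, 215 and 102 genes in all cells, in the order AKI-CKD against Control, AKI-CKD + EGT relative to AKI-CKD and AKI-CKD + EGT against Control, where edgeR called 4, 1 and 1, and it called 191, 433 and 93 in PT, where edgeR called 8, 0 and 0.

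Over genes in PT and in all cells, equal replicate numbers did not pair the mice. The distal types were not checked in this way. There Mt1 in LOH and in DCT was lowest in mouse 1 and highest in mouse 2 of each group. Mt2 in both types was also lowest in mouse 1 of each group. The group tests and overlaps given for the distal types take no account of such a pairing. In PT the deviations of mice with equal numbers had correlations of -0.45 to 0.43, over 0.1 in 1 of 9 pairs, and 1 of 9 mice correlated best with its own number. With the replicate number as a block, 66 of 68 results kept their direction and side of the threshold. Neither gene thus passed in LOH, DCT, CNT or CD-PC. The other 2 changed sign. Mt2 in all cells for AKI-CKD + EGT against Control was -0.037 and Mt2 in macrophages for AKI-CKD + EGT relative to AKI-CKD -0.023, and in PT the latter comparison gave 0.42 for Mt1 and 1.09 for Mt2. The calls over all genes went from 4, 1 and 1 to 0 in all cells and from 8 to 0 in PT for AKI-CKD against Control.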
